A study of Mus musculus with 8 samples.

Results

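The clustered protocadherins are cell-surface adhesion proteins encoded by adjoining gene clusters, alpha, beta and gamma, on mouse chromosome 18. Of the 41079 genes in the deposited count table, 58 carried a symbol of this family, namely Pcdha or Pcdhac with a number (alpha, 14 genes), Pcdhb with a number (beta, 22 genes) and Pcdhga, Pcdhgb or Pcdhgc with a number (gamma, 22 genes). Membership followed the symbol alone and used no measured value. The organ of Corti, which holds the hair cells of the cochlea, was micro-dissected from mice at postnatal day 0, and its total RNA was sequenced once ribosomal RNA had been removed. The 4 libraries labelled knockout carry Emx2-cre together with floxed Prox1, so that Cre made under Emx2 is meant to delete the homeobox gene Prox1, and the 4 other libraries are labelled wildtype. The labels name no allele in the wildtype libraries, and they leave unstated whether each library is a different animal. The p-values therefore rest on the spread among these libraries, which may be technical.

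In the alpha and gamma clusters, each variable exon has a promoter of its own, encodes the whole extracellular part of a protein, and is spliced to constant exons that all members of the cluster share. The beta genes have no constant exons. Single neurons use a small set of promoters, chosen through DNA methylation and through loops made by Ctcf and cohesin, and the resulting set of surface proteins binds only to matching sets on other cells, which neurons use to tell their own branches from those of others. The C-type members Pcdhac1, Pcdhac2, Pcdhgc3, Pcdhgc4 and Pcdhgc5 lie at the ends of the alpha and gamma clusters and are used more evenly from cell to cell. In the inner ear the family is much less studied than the non-clustered Pcdh15, which forms the lower part of the tip links of hair cells.

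The libraries labelled knockout held 29908965 to 32613549 counts and the wildtype libraries 32863533 to 42318233, so that 3 counts corresponded to 0.0690 to 0.102 CPM (counts-per-million, on library sizes scaled with the TMM method of edgeR). Prox1 had 147, 136, 138 and 133 CPM in the libraries labelled knockout 1 to 4, against 109, 114, 106 and 115 CPM in the wildtype libraries 1 to 4. Prox1 was thus higher in every library labelled knockout, with a log2 fold change of 0.33 ± 0.05 (SE, adjusted p = 0.0298, quasi-likelihood test of edgeR, Benjamini-Hochberg), which goes against the label, and directions below are given for the libraries as labelled. Since Prox1 is counted as 1 gene, its count does not separate the floxed part from the rest, and the floxed part was not examined. Its adjusted p was above 0.05 when any library other than library 4 labelled knockout was left out, with log2 fold changes between 0.30 and 0.34. Emx2 had 19.7 ± 2.39 CPM in the libraries labelled knockout and 16.2 ± 1.61 CPM in wildtype (SD, n = 4 each), a log2 fold change of 0.28 ± 0.10 that did not pass (adjusted p = 0.607, edgeR). Markers of the labelled tissue were present: the 12 hair cell genes had sums of 626 to 711 CPM with the knockout label against 632 to 769 CPM in wildtype, and the 14 supporting cell genes summed to 1984 to 2111 CPM against 1913 to 2089 CPM. Other cells were present too, with ranges of summed CPM in the libraries labelled knockout and then in wildtype of 854 to 1068 and 768 to 1106 for 18 neuron genes, 949 to 1055 and 982 to 1091 for 11 glial genes, 4688 to 5629 and 5541 to 6691 for 11 mesenchyme genes, 485 to 502 and 488 to 590 for 9 endothelium and pericyte genes, 45.1 to 49.4 and 42.6 to 56.9 for 7 macrophage genes, and 1423 to 2576 and 1772 to 4054 for 6 red cell genes. The 10 genes of stria vascularis and melanocytes ranged from 69.2 to 82.3 CPM in sum where the label was knockout and from 84.8 to 151 CPM in wildtype, and 4 Y-linked genes to 126 to 160 and 81.7 to 136 CPM. No gene of these lists was at 0 in all libraries, and Prox1 was the only list gene that passed the test. Of the stria and melanocyte genes, 8 of 9 tested had a log2 fold change below 0 (median -1.64), of mesenchyme 10 of 11 (-0.12). Endothelium and pericytes had 9 of 9 below 0 (-0.19), red cells 6 of 6 (-0.46) and hair cells 10 of 12 (-0.13). Glial genes had 7 of 11 below 0, macrophage genes 4 of 7 and supporting cell genes 6 of 14. All 4 Y-linked genes were above 0 (median 0.51). The cause of these directions was not tested.

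How reads are divided among members differs by cluster. In the mouse annotation GENCODE M21 (GRCm38, an older assembly than the submitters' GRCm39), 45.1 to 51.4% of the exon bases of an alpha gene belonged to no other clustered protocadherin, and the rest were constant exons shared within the cluster. In the gamma cluster this share was 33.2 to 72.2%. In the beta cluster it was 90.3 to 100%, with 20 of 22 genes at 100%. Windows of 100 bases from these own exons also occurred word for word in another member for 0 to 7.59% of the windows of an alpha gene, 0 to 2.30% of a beta gene and 0 to 10.2% of a gamma gene. Reads on the constant exons match every member of their cluster, and how the counting treated them is not given in the sources used here, so counts of alpha and gamma genes may cover only the own exons or may share reads. If each read is counted at most once, the sum over a cluster does not depend on how reads are split among its members. Reads left uncounted would be missing from it, and reads counted for several members would enter it several times.

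All members together held 0.0553, 0.0596, 0.0598 and 0.0538% of the counts in the libraries labelled knockout 1 to 4, against 0.0546, 0.0585, 0.0527 and 0.0588% in the wildtype libraries 1 to 4. Long noncoding RNA genes held 2.51, 2.77, 2.97 and 2.03% of the counts in the libraries labelled knockout, against 1.99, 2.61, 1.67 and 2.36% in wildtype. Wildtype libraries 1 and 3 and library 4 labelled knockout were the lowest 3 in both shares, and the part of that library property in the family's share was not tested. Of the family's counts, gamma members held on average 60.9%, beta members 36.6% and alpha members 2.41%. The gamma sum was 349, 349, 362 and 334 CPM in the libraries labelled knockout 1 to 4, against 340, 341, 329 and 355 CPM in the wildtype libraries 1 to 4. The beta sum was 195, 215, 205 and 206 CPM in the libraries labelled knockout, against 208, 213, 208 and 208 CPM in wildtype. The groups overlapped for both clusters. Library 1 labelled knockout had the lowest beta sum and wildtype library 2 the highest of its group. The alpha sum was 16.1, 12.5, 14.7 and 12.3 CPM in the libraries labelled knockout, against 15.3, 15, 10.1 and 13.1 CPM in wildtype. Here too the groups overlapped, and the spread within a group was wider relative to the level. The mean levels were 13.9 ± 1.83 and 13.4 ± 2.37 CPM for alpha, 205 ± 8.16 and 209 ± 2.75 CPM for beta, and 349 ± 11.3 and 341 ± 11 CPM for gamma, each in the libraries labelled knockout and then in wildtype (SD, n = 4 each). The log2 ratios, taken as differences between the group means of the log2 sums, were 0.06, -0.03 and 0.03. For alpha and gamma the difference in means was smaller than the SD of either group, and for beta it was smaller than the SD of the libraries labelled knockout and larger than that of wildtype. In a bulk sample, a difference in the number of cells of a type and a difference in RNA per cell cannot be told apart.

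**Figure D1:**
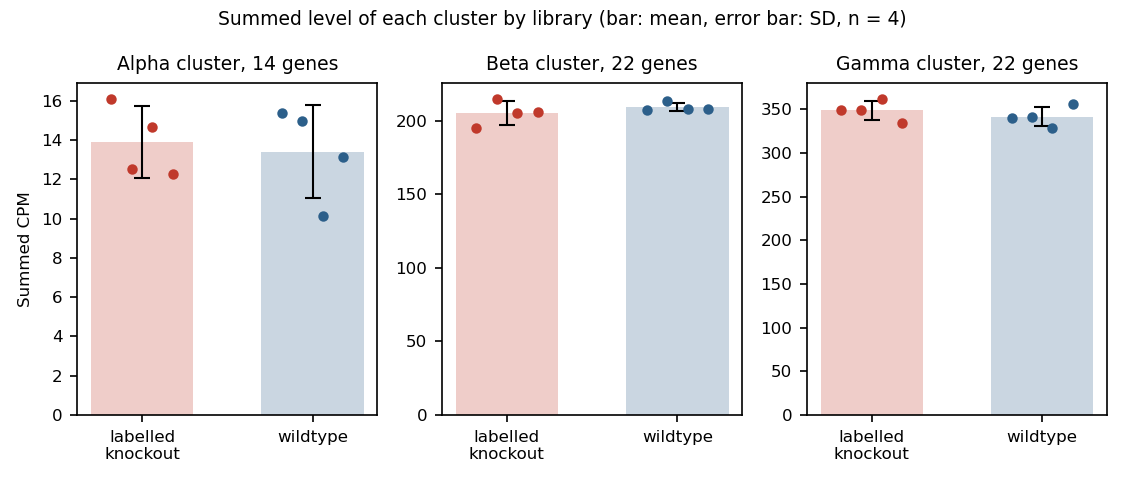
Summed CPM of the alpha, beta and gamma clusters in each library (points, replicate 1 to 4 from left to right), with the mean as a bar and the SD as an error bar (n = 4 per group), libraries labelled knockout on the left and wildtype on the right of each panel. The alpha libraries range from 10.1 to 16.1 CPM with wide overlap, and so do the groups of the beta and gamma clusters.

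Within the gamma cluster the C-type member Pcdhgc3, which in mouse promotes dendrite branching and binds Axin1, was the most abundant gene of the family. It had 73.0, 73.3, 70.5 and 77.8 CPM in the libraries labelled knockout, against 82.6, 71.8, 84.3 and 77.3 CPM in wildtype. Wildtype libraries 1 and 3 were the highest and library 3 labelled knockout the lowest, and the groups overlapped. The log2 fold change was -0.10 ± 0.06 (SE, 95% interval -0.23 to 0.03, adjusted p = 0.667, edgeR). Pcdhgc3 held 19.5 to 25.7% of the gamma counts of a library, with 22.6 CPM per kb of own exon against 0.850 to 9.68 CPM per kb for the other gamma genes. The antisense gene BC037039 overlaps it and had 1.48 ± 0.15 CPM in the libraries labelled knockout and 1.70 ± 0.12 CPM in wildtype (SD, n = 4 each). Since the strand setting is not given, reads of the pair cannot be told apart, but the antisense gene was counted far lower.

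The other gamma C-type genes were lower. Pcdhgc4, which in mouse is the gamma member needed for survival of many neurons, had 10.8, 9.33, 12.2 and 9.23 CPM in the libraries labelled knockout and 11.1, 11.5, 9.50 and 11.1 CPM in wildtype. Pcdhgc5, which was found at a subset of synapses in rat neurons, had 5.32, 5.64, 5.20 and 3.81 CPM in the libraries labelled knockout and 4.63, 3.93, 3.68 and 5.22 CPM in wildtype. Both genes overlapped between the groups, with log2 fold changes of -0.06 ± 0.11 and 0.20 ± 0.16 (SE). Pcdhgc5 was the lowest gamma gene by CPM and also per kb of own exon, at 0.850 CPM per kb.

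The 12 Pcdhga and 7 Pcdhgb genes were expressed at more even levels, with mean CPM from 8.28 to 18.2 for Pcdhga and from 9.23 to 24.8 for Pcdhgb. Pcdhgb6 led them with 25.2, 26.4, 24.5 and 27.1 CPM in the libraries labelled knockout, against 22.6, 22.1, 26.2 and 24.6 CPM in wildtype. Pcdhgb7 followed with 27.3, 21.4, 22 and 22.8 CPM in the libraries labelled knockout and 23.7, 24.8, 21.8 and 21.5 CPM in wildtype. Neither separated the groups, and their log2 fold changes were 0.11 ± 0.07 and 0.03 ± 0.09 (SE). Per kb of own exon the gamma genes other than the C-type genes spanned 2.54 to 9.68 CPM per kb, and the rank order along the chromosome and the level per kb were not related across the 22 gamma genes (Spearman's rho -0.03, a description across genes). The Pcdhga genes held 43.7 ± 0.91% of the gamma counts in the libraries labelled knockout and 43.1 ± 1.49% in wildtype, the Pcdhgb genes 30.7 ± 0.33% and 29.3 ± 1.24%, and the Pcdhgc genes 25.6 ± 1.19% and 27.6 ± 1.98% (SD, n = 4 each). The Pcdhgb share lay higher and the Pcdhgc share lower in the libraries labelled knockout. Each difference was larger than the SD of the libraries labelled knockout and slightly larger than that of wildtype. These shares were not tested. Pcdhga12 had the smallest p of the gamma cluster, with 14.4, 13.7, 14.1 and 11.7 CPM in the libraries labelled knockout and 11.6, 12.5, 10.9 and 12.8 CPM in wildtype. Only library 4 labelled knockout overlapped with wildtype, and the log2 fold change of 0.18 ± 0.09 (SE, adjusted p = 0.650, edgeR) did not pass. Pcdhga1, the lowest gamma gene after Pcdhgc5, had 8.0, 7.72, 9.92 and 8.60 CPM in the libraries labelled knockout and 8.17, 7.18, 7.90 and 8.77 CPM in wildtype, and its groups overlapped (log2 fold change 0.10 ± 0.11, SE). All 7 Pcdhgb genes had a fitted log2 fold change above 0, from 0.01 to 0.35, and none passed the test.

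Pcdhgb8, annotated as a transcribed pseudogene by RefSeq and as a polymorphic pseudogene by GENCODE, was the gamma gene that varied most between replicates. It had 7.01, 12.5, 12.4 and 9.29 CPM in the libraries labelled knockout, against 5.48, 8.21, 5.62 and 13.3 CPM in wildtype. Wildtype library 4 and the libraries 2 and 3 labelled knockout were high, and wildtype libraries 1 and 3 were low, so the spread ran across both groups. Its coefficient of variation (CV) within groups was 34.6%, against a median of 8.72% over the gamma genes, and its log2 fold change was 0.35 ± 0.27 (SE, adjusted p = 0.713, edgeR). Genes of similar abundance in the cluster did not show this range: Pcdhga5 had a CV of 11.7% and Pcdhga6 of 9.92%.

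**Figure D2:**
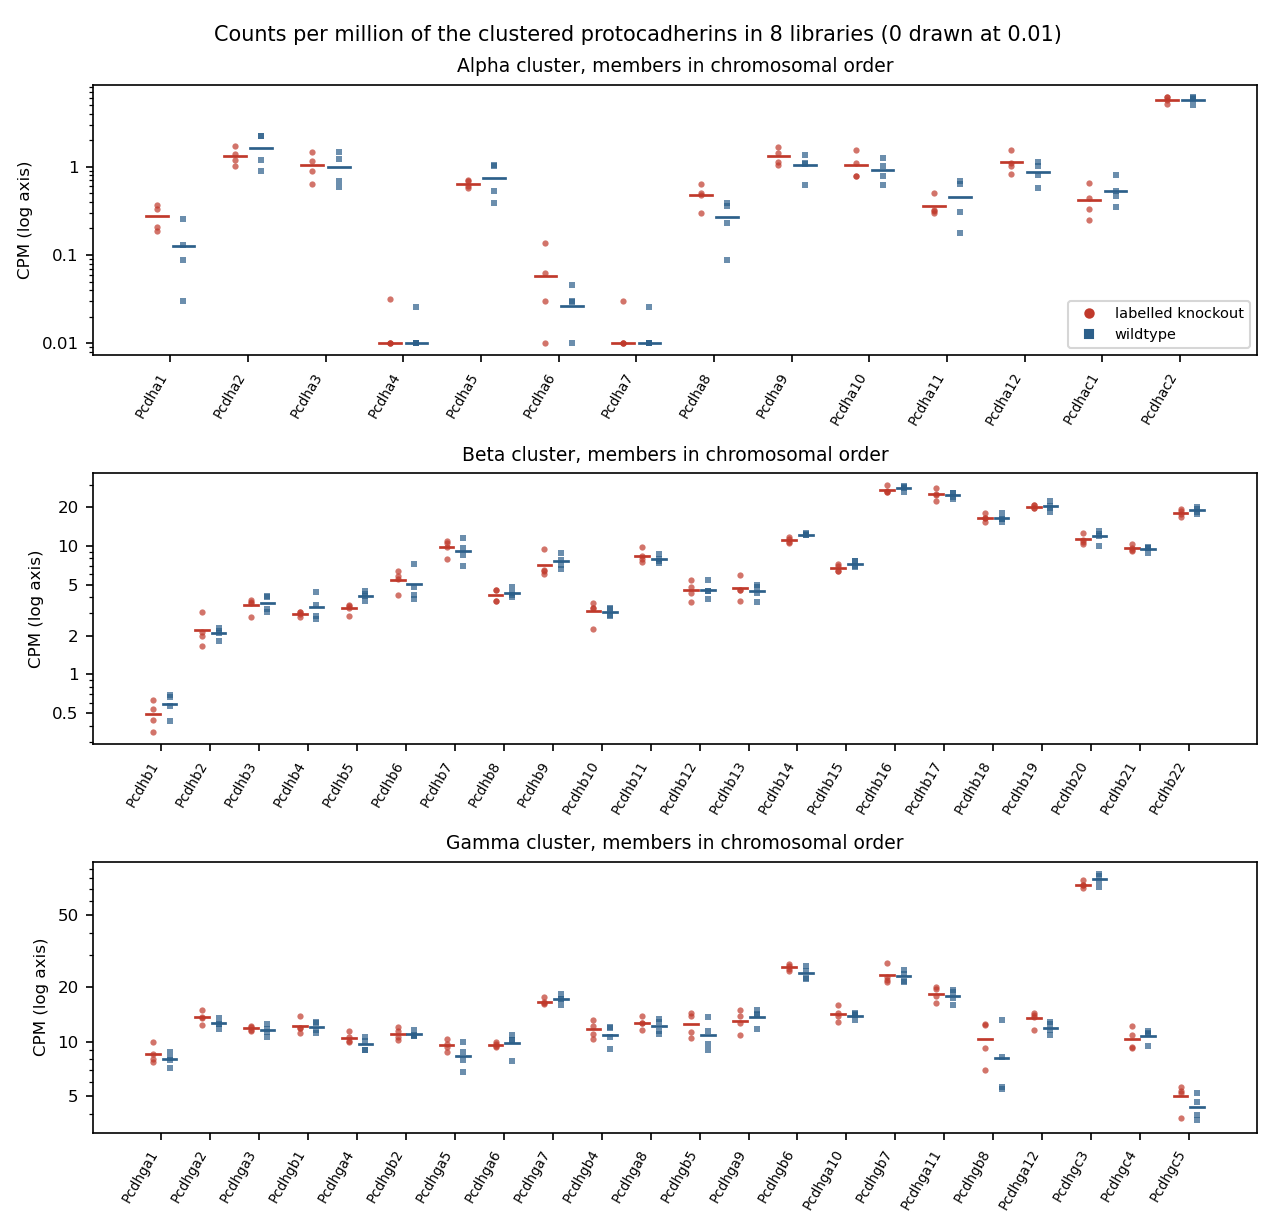
CPM of every clustered protocadherin in each of the 8 libraries, on a log axis, with genes in chromosomal order (points: libraries, short lines: group means, libraries labelled knockout left of wildtype; values and means below 0.01 CPM are drawn at 0.01). Pcdhac2 at 5.77 CPM and Pcdhgc3 at 76.3 CPM stand above the other members of their clusters, Pcdhb16 to Pcdhb22 above most of the earlier beta genes, and the points of Pcdhgb8 spread from 5.48 to 13.3 CPM.

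Beta members are single-exon genes whose proteins reach the cell surface without a shared constant domain. Their level tended to rise along the cluster, though not steadily. Spearman's rho was 0.81 between the order on the chromosome and CPM per kb of own exon across the 22 genes. This is a description across genes that share libraries and sequence, and carries no test. Pcdhb1, the first gene, was lowest at 0.210 CPM per kb, and Pcdhb17 was highest at 5.36 CPM per kb, closely followed by Pcdhb16 at 5.29 CPM per kb. Pcdhb18 to Pcdhb22 lay lower, at 2.25 to 3.27 CPM per kb, and Pcdhb7 had 2.71 CPM per kb. The last 7 genes, Pcdhb16 to Pcdhb22, a split chosen after the values were seen, held 62.4 ± 1.15% of the beta counts in the libraries labelled knockout and 62.1 ± 2.22% in wildtype (SD, n = 4 each). That share lay between 59.4 and 64.6% in every library.

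Pcdhb16 had 26.3, 29.5, 26.0 and 26.6 CPM in the libraries labelled knockout, against 28.1, 28.7, 29.3 and 26.4 CPM in wildtype. Pcdhb17 had 22.5, 28.3, 25.5 and 24.8 CPM in the libraries labelled knockout, against 24.0, 25.7, 26.0 and 23.0 CPM in wildtype. Pcdhb19 had 19.8, 20.6, 20.7 and 19.8 CPM in the libraries labelled knockout, against 20.6, 22.5, 19.5 and 18.4 CPM in wildtype. These most abundant beta genes overlapped between the groups, and their 95% intervals for the fold change reached from 0.87 to 1.06, 0.91 to 1.15 and 0.89 to 1.11. At the low end, Pcdhb1 had 0.542, 0.446, 0.359 and 0.630 CPM in the libraries labelled knockout and 0.672, 0.690, 0.439 and 0.567 CPM in wildtype. Pcdhb2 had 3.08, 1.99, 1.67 and 2.14 CPM in the libraries labelled knockout and 2.30, 1.82, 2.11 and 2.18 CPM in wildtype. Both overlapped between the groups, with log2 fold changes of -0.27 ± 0.28 and 0.08 ± 0.20 (SE). Pcdhb11 had the smallest p among the beta genes above 0, with 7.56, 9.77, 8.31 and 7.88 CPM in the libraries labelled knockout and 8.66, 7.66, 7.34 and 7.85 CPM in wildtype. The groups overlapped (log2 fold change 0.09 ± 0.11, SE, adjusted p = 0.817, edgeR).

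In 2 beta genes the groups did not overlap. Pcdhb5 had 3.29, 3.42, 2.84 and 3.5 CPM in the libraries labelled knockout, against 3.70, 4.44, 4.24 and 4.06 CPM in wildtype. Pcdhb14 had 10.7, 10.5, 11.4 and 11.8 CPM in the libraries labelled knockout, against 12.1, 12.3, 12.5 and 12.1 CPM in wildtype. All libraries labelled knockout lay below all wildtype libraries for both genes. The log2 fold change of Pcdhb5 was -0.33 ± 0.13 (SE, unadjusted p = 0.0260, adjusted p = 0.644, edgeR), and that of Pcdhb14 was -0.15 ± 0.08 (SE, adjusted p = 0.650, edgeR), so neither passed. Of all 20581 genes tested, 1.62% had every library labelled knockout below every wildtype library and 2.07% every one above, against 2 and 0 of the 54 members tested.

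The alpha cluster was the least abundant, and a single C-type gene made up much of it. Pcdhac2, which in mouse lets serotonergic axons spread evenly through their targets, had 6.17, 5.11, 6.22 and 5.67 CPM in the libraries labelled knockout, against 6.12, 5.91, 5.03 and 5.97 CPM in wildtype. The groups overlapped over a narrow range, and the log2 fold change was 0.01 ± 0.12 (SE). Pcdhac2 held 38.3 to 49.6% of the alpha counts of a library, with 1.91 CPM per kb of own exon, above the 0.592 CPM per kb of Pcdha2, the next alpha gene. The other C-type gene, Pcdhac1, had 0.441, 0.653, 0.329 and 0.252 CPM in the libraries labelled knockout and 0.465, 0.529, 0.351 and 0.806 CPM in wildtype, and the groups overlapped (log2 fold change -0.35 ± 0.36, SE).

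The alternate alpha genes are the members of the cluster other than Pcdhac1 and Pcdhac2. Among them, Pcdha2 had 1.19, 1.01, 1.70 and 1.39 CPM in the libraries labelled knockout and 2.25, 2.21, 0.907 and 1.19 CPM in wildtype. Pcdha9 had 1.66, 1.13, 1.43 and 1.04 CPM in the libraries labelled knockout and 1.11, 1.08, 0.614 and 1.37 CPM in wildtype. Both overlapped between the groups, and within wildtype the lowest and highest libraries were more than 1.5-fold apart. Pcdha8 had the smallest p of the cluster, with 0.644, 0.297, 0.508 and 0.473 CPM in the libraries labelled knockout and 0.362, 0.230, 0.0877 and 0.388 CPM in wildtype. Wildtype library 3, with 3 counts, was lowest, and the groups overlapped. Its log2 fold change of 0.83 ± 0.41 (SE, 95% interval -0.07 to 1.73, adjusted p = 0.647, edgeR) did not pass.

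Pcdha1, Pcdha4, Pcdha6 and Pcdha7 were below the low-count filter and were not tested. Pcdha1 had 11, 7, 11 and 6 counts in the libraries labelled knockout and 5, 11, 3 and 1 counts in wildtype. Pcdha6 had 4, 0, 1 and 2 counts in the libraries labelled knockout and 0, 2, 1 and 1 in wildtype, and Pcdha4 and Pcdha7 had 0 or 1 count in every library of both groups. The near-zero counts of the last 3 cannot be read as levels. The RefSeq annotation of GRCm38 holds read-through genes that take in these genes, among them Gm38666 (also named Pcdha6-g) and Gm38667 (Pcdha7-g), and a read that fits a pair of genes may be left uncounted. The rows of Gm38666 and Gm38667 in the count table held 0 or 1 count in every library as well.

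**Figure D3:**
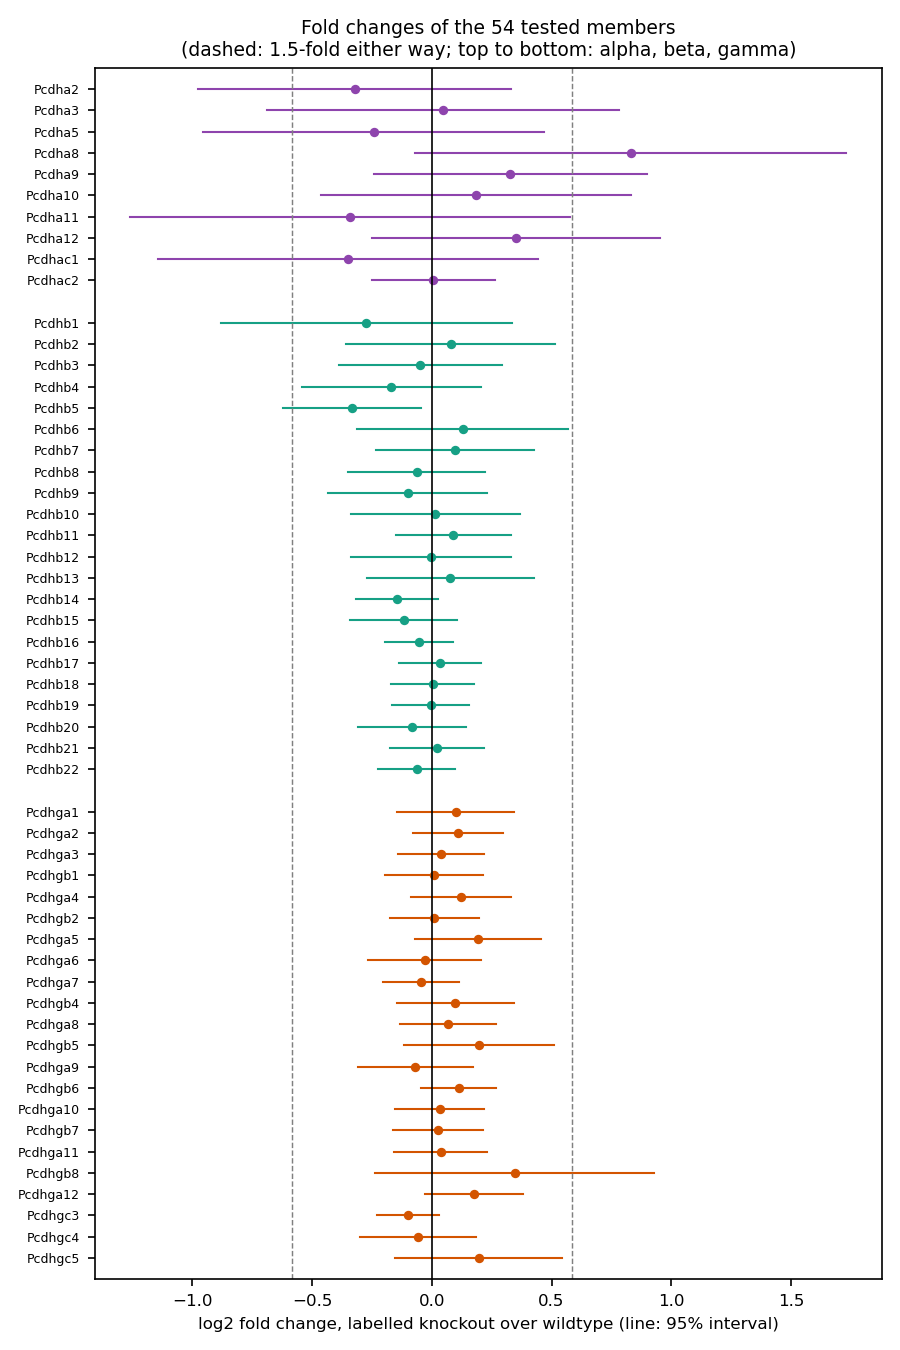
Fitted log2 fold change of the 54 members tested, libraries labelled knockout over wildtype (points), with 95% intervals (lines), from top to bottom by cluster and chromosomal order (dashed lines: 1.5-fold either way). The interval of Pcdhb5 lies below 0 before adjustment, all others include 0, and the widest is that of Pcdha11, from -1.26 to 0.58.

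Across the family no member passed the test: 0 of 54 were called higher and 0 lower (edgeR, adjusted p under 0.05), beside 0.0340% of all genes tested called higher and 0.0583% called lower, 0.0923% in either direction. Pcdhb5 alone had an unadjusted p under 0.05, while 7.55% of all genes tested did, and DESeq2, limma-voom and the other settings tried called 0 members as well. The authors' deposited table gave an adjusted p for 51 members, none under 0.05, the lowest being 0.574 for Pcdhb5, and its log2 fold changes differed from those given here by at most 0.0098. Of the fitted log2 fold changes, 6 of 10 in the alpha cluster, 9 of 22 in the beta cluster and 17 of 22 in the gamma cluster were above 0, with medians of 0.03, -0.03 and 0.05, and over all genes tested 10291 of 20581 were above 0. Members of a cluster share exons and libraries, so these counts are not independent observations.

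A p above the threshold does not show that levels were alike, but the intervals bound the difference. The 95% interval lay within 1.5-fold either way for 20 of 22 beta genes, 21 of 22 gamma genes and 1 of 10 alpha genes, the one being Pcdhac2. For all genes tested this share was 67.2%. Within 2-fold either way it covered all 22 beta genes, all 22 gamma genes and 7 of 10 alpha genes. The beta gene whose interval passed 1.5-fold by most was Pcdhb1, with a fold between 0.54 and 1.26, the other was Pcdhb5, between 0.65 and 0.97, and the gamma gene was Pcdhgb8, between 0.85 and 1.9. In the alpha genes other than Pcdhac2, the intervals include changes of 1.5-fold at this depth.

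The spread between replicate libraries followed abundance. The median CV within groups was 35.6% in the alpha cluster, 9.87% in the beta cluster and 8.72% in the gamma cluster, against 10.7% over all genes tested. Pcdhb14 had the smallest CV, 3.78%, and Pcdha11 the largest of the tested members, 46.6%. In CPM, Pcdhgc3 differed by 1.2-fold between its lowest and highest library, and Pcdhgb8 by 2.42-fold.

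**Figure D4:**
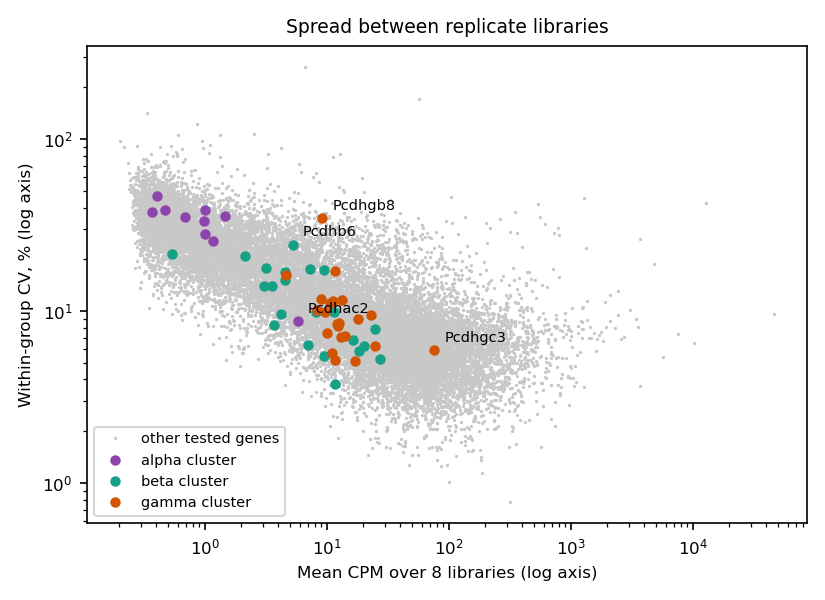
Coefficient of variation within groups, in percent, against mean CPM over the 8 libraries, both on log axes, for the clustered protocadherins (colours: cluster) and the other genes tested (grey). Alpha genes lie at the low-abundance, wide-spread end, with Pcdhac2 at 8.76%, and Pcdhgb8 at 34.6% lies above the other gamma genes.

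The alpha sum varied with the neuron genes from library to library. The 18 neuron genes, among them Tubb3, Snap25 and Stmn2, summed to 1068, 854, 954 and 864 CPM in the libraries labelled knockout 1 to 4, against 1006, 1106, 768 and 911 CPM in the wildtype libraries 1 to 4. The 4 libraries highest in neuron genes, libraries 1 and 3 labelled knockout and wildtype libraries 1 and 2, were also the 4 highest in the alpha sum, at 14.7 to 16.1 CPM. Wildtype library 3 was lowest in both. The beta and gamma sums did not follow this order as a whole. Library 1 labelled knockout, second in neuron genes, had the lowest beta sum, 195 CPM. The gamma sum was also lowest in wildtype library 3, at 329 CPM. Wildtype library 2, highest in neuron genes, had a gamma sum of 341 CPM, below the 355 CPM of wildtype library 4. All 18 neuron genes were tested and none passed, with 6 above and 12 below 0 and the smallest p at Rbfox3, a nuclear protein of neurons (log2 fold change -0.21 ± 0.17, SE). The neuron list was the only one drawn against the cluster sums. The 11 glial genes ran largely the other way. They summed to 949 to 1019 CPM in the 4 libraries highest in the alpha sum and to 1013 to 1091 CPM in the others. The part of neurons or glia in the alpha levels was not tested.

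**Figure D5:**
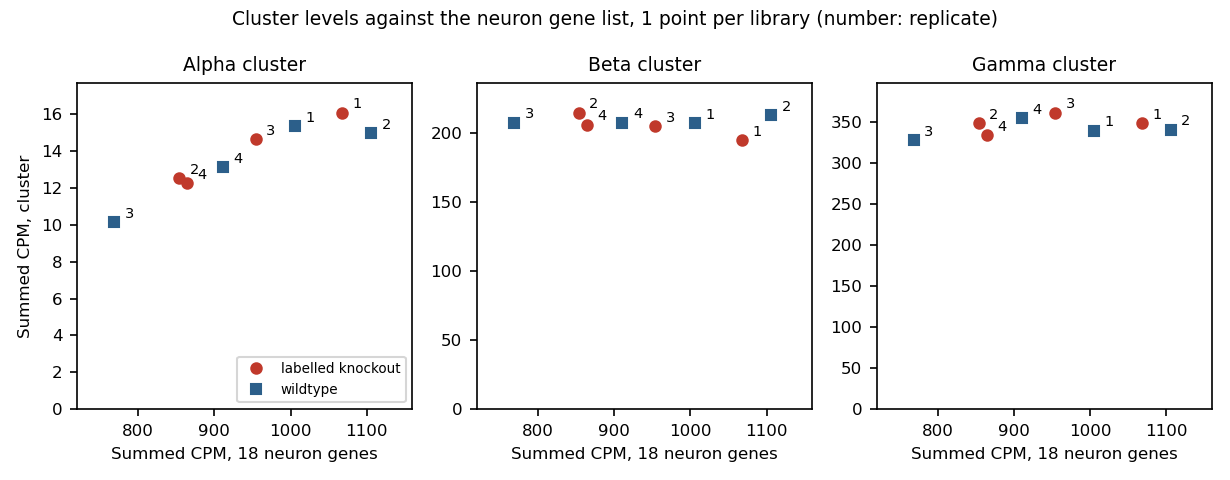
Summed CPM of each cluster against the summed CPM of 18 neuron genes, 1 point per library (numbers: replicate), with circles for the libraries labelled knockout and squares for wildtype. The alpha sum is 10.1 CPM in the library with 768 CPM of neuron genes and 14.7 to 16.1 CPM in the 4 libraries with 954 to 1106 CPM. The beta and gamma sums do not follow that order as a whole, although the gamma sum is also lowest in the library with 768 CPM.

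Genes that neighbour the clusters did not pass the test either. Zmat2, upstream of the alpha cluster, had 36.5 ± 2.81 CPM in the libraries labelled knockout and 36.9 ± 3.02 CPM in wildtype. Taf7, a general transcription factor subunit encoded between the beta and gamma clusters, had 17.1 ± 1.21 and 18 ± 2.28 CPM, and Diaph1, an actin nucleator encoded downstream of the gamma cluster, 94.6 ± 3.71 and 98.3 ± 6.0 CPM, each in the libraries labelled knockout and then in wildtype (SD, n = 4 each).

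Factors that act on clustered protocadherin promoters were read beside the members. Of 24 genes for architecture, cohesin, DNA methylation and repression, 0 were called higher and 0 lower, with 13 above and 11 below 0 and a median log2 fold change of 0.01. Ctcf, which anchors the loops between promoters and enhancers, had 94.9 ± 2.69 CPM in the libraries labelled knockout and 94.6 ± 2.14 CPM in wildtype. Smchd1, which represses clustered protocadherins in mouse, had 106 ± 3.90 and 105 ± 5.28 CPM, and the DNA methyltransferase gene Dnmt3b, which methylates their promoters in the mouse embryo, 9.07 ± 0.95 and 9.0 ± 1.03 CPM, in the same order of groups (SD, n = 4 each). The smallest p belonged to Zfp143, a partner of Ctcf at promoters, with 12.6 ± 0.99 CPM in the libraries labelled knockout and 11.3 ± 0.50 CPM in wildtype (log2 fold change 0.16 ± 0.09, SE, adjusted p = 0.650, edgeR). Rest, a repressor of neuronal genes, had 185 ± 3.44 CPM in the libraries labelled knockout and 194 ± 4.91 CPM in wildtype. Its groups did not overlap, but its log2 fold change of -0.07 ± 0.04 (SE) did not pass (adjusted p = 0.678, edgeR).

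Of 21 binding and signalling partners, which include the WAVE actin complex recruited by protocadherin tails, the kinases Ptk2 and Ptk2b bound by the constant domain and the proteases that cleave the proteins, 0 passed the test, with 6 above and 15 below 0 and a median of -0.03. Ptk2 had 125 ± 2.60 CPM in the libraries labelled knockout and 126 ± 5.25 CPM in wildtype, and Axin1 77.1 ± 3.60 and 81.3 ± 7.49 CPM (SD, n = 4 each). Ctnnb1, which encodes beta-catenin, had the smallest p, with a log2 fold change of -0.15 ± 0.07 (SE, adjusted p = 0.647, edgeR).

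The 13 non-clustered protocadherin genes, with the related Cdhr1 counted among them, do not belong to the alpha, beta or gamma cluster. Their sum was 987, 987, 1058 and 929 CPM in the libraries labelled knockout, against 900, 996, 912 and 927 CPM in wildtype. Pcdh9 led them with 371 ± 48.8 CPM in the libraries labelled knockout and 312 ± 55.0 CPM in wildtype. Pcdh7 had 117 ± 7.65 and 122 ± 7.79 CPM, and Pcdh18 93.2 ± 6.56 and 96.3 ± 12.1 CPM, in the same order (SD, n = 4 each). The tip-link gene Pcdh15 had the smallest p, with 74.9 ± 7.74 CPM in the libraries labelled knockout and 65.9 ± 5.48 CPM in wildtype, a log2 fold change of 0.18 ± 0.08 (SE, adjusted p = 0.647, edgeR). None of the 13 passed, with 4 above and 9 below 0.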

How the data were processed

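RNA of the 8 libraries was purified with RNeasy, and libraries were built with NEBNext Ultra II once ribosomal RNA had been removed, per the labels' protocols. HISAT2 2.2.1, cutadapt 4.3, FastQC 0.12.1, and, with no version, featureCounts and DESeq2 appear in the submitters' processing notes, as does GRCm39. Which annotation was counted, and how strand, shared exons and reads with several matches were handled, is not given in the sources used here. Raw counts by gene were deposited, per the file headers. Their group means and SDs and the normalized mean, a signal the authors computed, were not used. A DESeq2 result deposited beside them holds log2 fold changes with their errors, a Wald score, and p-values before and after adjustment, and its direction was read from its signs.

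Counts of 20581 of 41079 genes passed filterByExpr (minimum count 10) and were tested with edgeR 4.0.16 (R 4.3.3): TMM scaling, the quasi-likelihood test of the libraries labelled knockout over wildtype, and p-values adjusted after Benjamini and Hochberg over the whole tested table (threshold 0.05). The 95% intervals are fold change ± t times SE. The family and the gene lists were picked for study with earlier results of these data known, and the members of the family follow from their symbols. Named members are the C-type genes and those whose groups do not overlap. In each cluster the 3 highest and 2 lowest by mean CPM and the smallest p in each direction were also named. The gene of smallest p was named for the neuron, regulator, partner and non-clustered protocadherin lists. For the other lists it was named only where it passed the test. Others named, among them Pcdhgb8 and genes with known roles, were chosen after their values were seen. For levels per length, a RefSeq protein length had been planned; exon bases of GENCODE M21 that no other member shares were used instead, for 56 of 58 members. Pcdha10 and Pcdha11 have none. RefSeq GRCm38.p6 gave biotypes and neighbours by symbol for all 58 members. The main test left the libraries unpaired. Correlations of same-numbered libraries showed no pairing, but they cannot exclude it. No pair of libraries agreed within sampling noise (lowest chi-square per degree of freedom 9.46). Alternatives were other scalings and filters, DESeq2 1.42.0, limma-voom (limma 3.58.1), a replicate block, and libraries left out.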

Additional observations from a re-analysis of the deposited data

Results flagged for a closer look

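In each group of 4 libraries, a library was flagged when its gap to the nearest other library took up more of the range of the group than Dixon's 95% critical value allows. Of 118 such groups checked, 4 were flagged, where chance flags about 5%. The summed beta level was 213.3 CPM in wildtype library 2, where the other wildtype libraries had 207.7 to 207.9 CPM, a flag that rests on how close the other libraries lay. Pcdhb16 had 29.5 CPM in library 2 labelled knockout, against 26.0 to 26.6 CPM in the other libraries labelled knockout. Pcdhb9 had 9.39 CPM in library 4 labelled knockout, against 6.06 to 6.47 CPM in the others of that group. Pcdha11 had 0.508 CPM in library 1 labelled knockout, against 0.299 to 0.327 CPM in the others.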

How the results depend on the processing

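Under all 16 alternatives 0 clustered protocadherins were called. The median log2 fold change ranged from -0.10 to 0.15 in the alpha cluster (other sign in 4 of 16), from -0.05 to 0.01 in beta (other sign in 1) and from 0.01 to 0.09 in gamma. The log2 ratios of the summed CPM, which have no value under DESeq2, limma-voom and the block, ranged from -0.07 to 0.13, from -0.05 to 0.00 and from 0.00 to 0.05, and all moved by less than the spread between replicates. Of 315 values of the 20 named members tested, 0 were called and 15 had the other sign. Between 0 and 5 members had an unadjusted p under 0.05, the 5 being without wildtype replicate 4. Over all genes, 12 were called higher and 24 lower without a low-count filter, and 36 higher and 49 lower with DESeq2. With the replicate number as a block, 3 were called higher, and Prox1 had a log2 fold change of 0.33 (adjusted p = 0.159, edgeR). Correlations of same-numbered libraries were 0.10, 0.20, -0.26 and -0.13, and not every library correlated best with its own number. These values showed no pairing but cannot exclude it. Leaving out 1 library gave 2 to 7 higher and 8 to 20 lower, with Prox1 between 0.30 and 0.34. Wildtype libraries 1 and 3, which had the lowest shares of long noncoding RNA counts (1.99 and 1.67%, against 2.03 to 2.97% in the others) and which an earlier reading of these data set apart, were also left out together. There were then 2 higher and 7 lower, with Prox1 at 0.28 (adjusted p = 0.478, edgeR). The cause was not tested. Intervals were wide for most alpha genes, and reads on shared exons may affect the counts of single alpha and gamma genes.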

Other observations

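Wildtype library 4 was the highest wildtype library in Pcdhgb8 and in some other members, among them Pcdha9, Pcdhb4, Pcdhga5 and Pcdhgc5. In others, such as Pcdhb16 and Pcdhgc3, it was not, and the share over all genes was not computed. The 3 members given here were chosen after their values were seen. Pcdhb6 had 4.17, 6.39, 5.56 and 5.80 CPM in the libraries labelled knockout 1 to 4 and 3.88, 4.19, 4.80 and 7.28 CPM in the wildtype libraries 1 to 4, with a CV within groups of 24.3%. Pcdhb7 had 7.86, 10.5, 9.80 and 11 CPM in the libraries labelled knockout and 8.53, 7.04, 9.59 and 11.5 CPM in wildtype. Pcdhgb5 had 11.3, 13.9, 14.4 and 10.5 CPM in the libraries labelled knockout and 9.02, 11.4, 9.68 and 13.7 CPM in wildtype. Library 2 labelled knockout lay above library 1 labelled knockout in Pcdhb6, Pcdhb7 and Pcdhgb5, while the order of the other libraries differed from gene to gene.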
